A study of Mus musculus with 8 samples.

Results

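miR-221 (mmu-miR-221) and miR-222 (mmu-miR-222) are a pair of microRNAs (miRNAs, short RNAs that repress messenger RNAs by base pairing) that lie next to each other on the mouse X chromosome. Both were chosen by name in the deposited probe lists, passenger strands left out. Each is measured by 1 probe, so the pair is 2 of the 431 probes of the deposited value table and 2 of the 346 probes that the comparison sheets name. Mouse embryonic fibroblasts (MEFs), connective-tissue cells grown from embryos, were taken from ATM-/- and ATM+/+ littermates. ATM encodes a kinase that is activated by breaks in both DNA strands. Cells of both genotypes were treated with neocarzinostatin (NCS), a drug that mimics radiation by causing such breaks, and collected after 0, 4, 8 and 24 h. The 8 arrays therefore fall into ATM-/- cells at 0, 4, 8 and 24 h and ATM+/+ cells at 0, 4, 8 and 24 h, with 1 array in each group. The labels do not give the number of embryos or lines behind an array, nor the dose.

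A miRNA finds its targets mainly through its seed, the bases 2 to 8 from its 5′ end. miR-221 and miR-222 have the same seed and are known for repressing p27 (Cdkn1b), an inhibitor of cyclin-dependent kinases that holds cells in the G1 phase, and the related inhibitor p57 (Cdkn1c). They are processed from neighbouring hairpins and are generally treated as products of 1 primary transcript, abundant in fibroblasts and in endothelial and smooth muscle cells.

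The mature sequences show why the pair is described together, and where its members differ. They are those of RefSeq on GRCm38.p6, minus strand, at chrX:19146307-19146329 for miR-221 and chrX:19146901-19146923 for miR-222, where RefSeq names them as the 3p arms; the deposited names carry no arm. Both probe names matched. Capitals mark the seed.
miR-221: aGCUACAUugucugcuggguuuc
miR-222: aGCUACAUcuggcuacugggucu
miR-1928: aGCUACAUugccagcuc
The first 8 bases of miR-221 and miR-222 are identical. Over all 23 positions 11 bases are the same, and the longest run shared behind the seed is CUGGGU, at bases 15 to 20 of miR-221 and 16 to 21 of miR-222. miR-1928, from chromosome 1, is the only other mature sequence of the table with this seed, and no deposited probe is named for it. The probe sequences are not in the sources used here, so signal shared between these miRNAs was not tested.

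The hairpins, printed with the mature 3p arm in capitals, show both arms of the precursors. They lie on the minus strand at chrX:19146294-19146388 for miR-221 and chrX:19146893-19146971 for miR-222, with 504 bases between them, so that miR-222 is the upstream of the pair.
Mir221 hairpin: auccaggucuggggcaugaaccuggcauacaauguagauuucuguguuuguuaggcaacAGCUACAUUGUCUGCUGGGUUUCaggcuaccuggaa
Mir222 hairpin: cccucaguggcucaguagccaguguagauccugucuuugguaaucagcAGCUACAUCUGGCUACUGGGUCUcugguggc

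Some properties of the data bear on every value. Each comparison sheet sets 1 treated array against the 0 h array of its genotype and lists 185, 154 and 126 probes for ATM-/- cells and 311, 298 and 313 for ATM+/+ cells at 4, 8 and 24 h. Both members are in all 6 sheets. Errors given as SD over spots are between 3 spots of 1 array and are technical, and errors given as SD over times are over the treated times, which share 1 array at 0 h and are not replicates. The fibroblast markers miR-143, miR-145, miR-199a-3p (on a probe shared with miR-199b), miR-214 and miR-21 were listed in both genotypes, and miR-199a-5p is not among the named probes. Their summed 0 h intensity was 1731 in ATM-/- cells, against 3875 in ATM+/+ cells, and miR-21 alone stood at 32.3 in ATM-/- cells, against 1059 in ATM+/+ cells. The markers differed unevenly. In ATM-/- against ATM+/+ cells miR-145 stood at 1027 and 1070 and miR-214 at 531 and 756. miR-143 stood at 111 and 673 and miR-199a-3p at 29.4 and 317. Of the markers of other cells, 0 of 1 endothelial, 1 of 2 blood, 1 of 3 epithelial and 4 of 4 muscle miRNAs measured were listed in an ATM-/- sheet, against 1, 2, 3 and 4 in ATM+/+ sheets. Over the listed members, the blood, epithelial and muscle markers had summed 0 h intensities of 32.3, 164 and 223 in ATM-/- cells, against 60.0, 446 and 523 in ATM+/+ cells. The 1 endothelial marker, miR-126-5p, is in no ATM-/- sheet and had 26.1 in ATM+/+ cells, and unlisted members have no intensity here, so the blood and epithelial sums cover fewer members in ATM-/- cells. The part of these marker differences in the results on the pair was not tested. In bulk RNA, fewer cells with a miRNA and less of it per cell cannot be told apart. The sheets of the genotypes were also normalized apart, from arrays on separate chips. The marker intensities are therefore not on 1 scale across genotypes.

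Both miRNAs were detected at every time in both genotypes, miR-222 close to the low end in ATM-/- cells. miR-221 had normalized intensities of 226, 210, 184 and 277 at 0, 4, 8 and 24 h in ATM-/- cells, against 312, 527, 498 and 501 in ATM+/+ cells. For these values the 8 and 24 h sheets were multiplied by the constant that matches their 0 h array to that of the 4 h sheet. In ATM-/- cells the 24 h array was highest and the 8 h array lowest, while in ATM+/+ cells the 0 h array was lowest and the treated arrays lay close together. miR-222 had 42.2, 51.5, 48.2 and 51.0 at 0, 4, 8 and 24 h in ATM-/- cells, against 187, 318, 265 and 294 in ATM+/+ cells. Its ATM-/- values thus spanned a narrow range above 27.6, the 10th percentile of all intensities in the ATM-/- sheets, and the ATM+/+ values again had their lowest at 0 h. In ATM-/- cells the SD between spots of miR-222 reached 2.48, 7.93, 7.20 and 16.3 in turn, so the last value is the least certain, with a coefficient of variation of 31.9%. The 27.6 is on the sheets' own scales, where the ATM-/- 24 h sheet held miR-222 at 34.6 for 0 h and 41.9 for 24 h. Without scaling between arrays its log2 ratios to 0 h in ATM-/- cells were 0.91, 0.98 and 0.33 at 4, 8 and 24 h. The narrow range of miR-222 thus depends on the scaling.

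**Figure D1:**
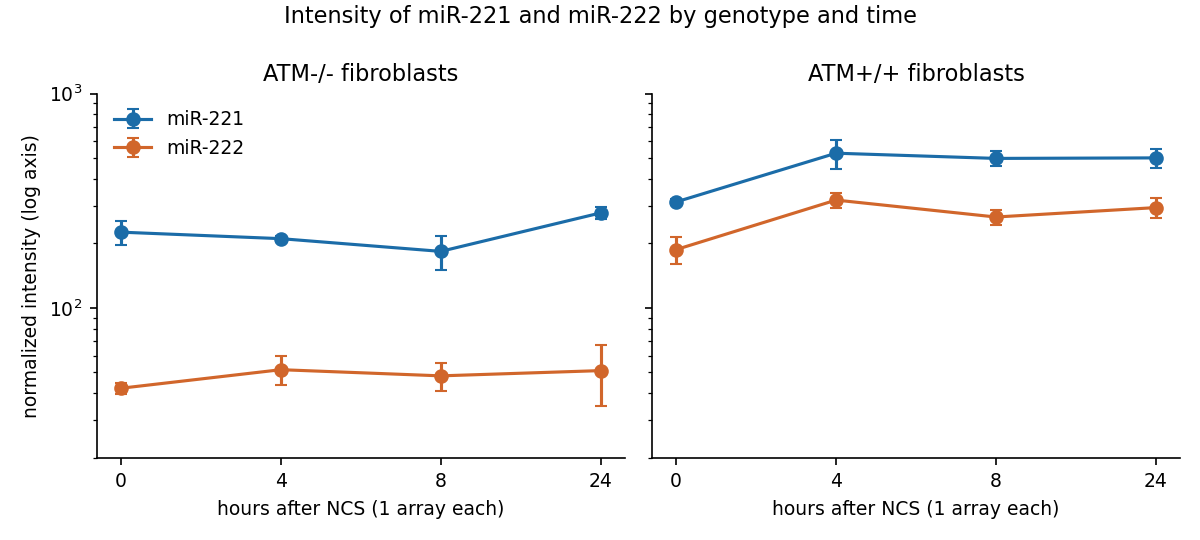
Normalized intensity of miR-221 and miR-222 (log axis) in ATM-/- cells (left) and ATM+/+ cells (right) at 0, 4, 8 and 24 h after NCS, 1 array per point, with bars for the SD of 3 spots. All values are on the scale of the 4 h sheet of the genotype; the lines of the pair lie far apart in ATM-/- cells, where miR-222 stays between 42.2 and 51.5, and closer together in ATM+/+ cells, where both are lowest at 0 h.

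Intensities cannot be tested across genotypes, whose sheets the authors normalized apart, and ranks within an array were used to place the pair. Among the 120 probes present in all 6 sheets, miR-221 held rank 27, 31, 35 and 19 from the top at 0, 4, 8 and 24 h in ATM-/- cells, against rank 48, 27, 28 and 31 in ATM+/+ cells. Its rank at the treated times was thus similar in both genotypes, and at 0 h it stood higher among the common probes in ATM-/- cells. miR-222 held rank 110, 105, 104 and 84 in ATM-/- cells, against 66, 38, 42 and 42 in ATM+/+ cells. It lay lower among the common probes in ATM-/- cells at every time. These 120 are nearly all of the 123 probes in all 3 ATM-/- sheets, which are the shorter lists. Among all probes of the 4, 8 and 24 h sheets, treated miR-222 held percentiles 37.8, 27.3 and 29.4 in ATM-/- cells. In ATM+/+ cells they were 84.2, 81.9 and 83.1. For miR-221 at 0 h they were 85.4, 82.5 and 78.6 in ATM-/- cells, against 82.6, 81.9 and 82.7 in ATM+/+ cells.

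With each array centred on the median of these 120 probes, the log2 level of miR-222 in ATM-/- minus that in ATM+/+ cells was -0.996, -1.66, -1.49 and -1.54 at 0, 4, 8 and 24 h, a mean of -1.42 ± 0.29 (SD over 4 times). For miR-221 the same difference, ATM-/- minus ATM+/+, was 0.68, -0.36, -0.47 and 0.13, a mean of -0.00 ± 0.53 with no settled direction. Over the 120 probes the mean difference had a median of 0.33 and ran from -1.82 at the 5th percentile to 1.41 at the 95th, where miR-222 held rank 13 from the lowest. No p-value is given, because the spread between cultures of 1 genotype was not measured.

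The ratio of the pair within an array does not depend on the scaling of that array. The intensities of each array in a sheet were whole multiples of 1 common step (all values below 300 units where the unit makes the sum of 3 spots a whole number to within 0.02), as 1 factor per array leaves them. The size of the ratio reflects the probes as well as the amounts, and only its difference between arrays is read. The log2 intensity of miR-222 minus that of miR-221 was -2.42, -2.03, -1.93 and -2.44 at 0, 4, 8 and 24 h in ATM-/- cells, against -0.74, -0.73, -0.91 and -0.77 in ATM+/+ cells. All 4 ATM-/- arrays lay below all 4 ATM+/+ arrays, with a gap of 1.02 between the nearest arrays of the genotypes. In linear terms miR-221 was 5.34, 4.08, 3.81 and 5.44 times as bright as miR-222 in ATM-/- cells, against 1.67, 1.65, 1.88 and 1.71 times as bright in ATM+/+ cells.

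The means were -2.20 ± 0.26 in ATM-/- cells, against -0.79 ± 0.08 in ATM+/+ cells (SD over 4 times), so the signal of miR-222 relative to miR-221 was 2.67-fold lower in ATM-/- cells. The difference, ATM-/- minus ATM+/+, was -1.42 ± 0.32 on the log2 scale and of the same sign at 4 of 4 times. An exact two-sided sign-flip test over the 4 times gave p = 0.125, the smallest p that 4 pairs allow. Errors from the spots of a single array were from 0.12 to 0.27 in ATM-/- cells and from 0.09 to 0.15 in ATM+/+ cells (SE), smaller than the difference at every time. As all arrays of a genotype may come from 1 culture, and ATM-/- and ATM+/+ arrays were on separate chips, genotype, culture and chip cannot be told apart.

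**Figure D2:**
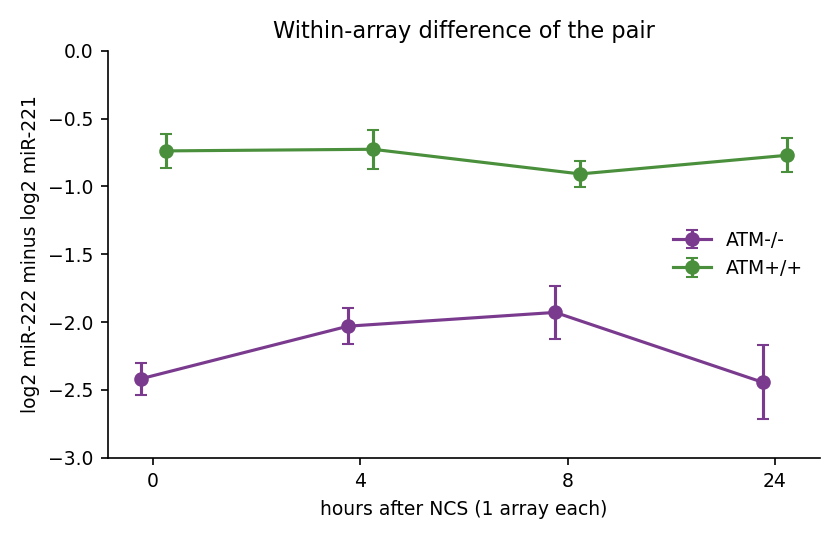
Log2 intensity of miR-222 minus log2 intensity of miR-221 inside each array, against hours after NCS, for ATM-/- and ATM+/+ cells, with bars for the SE from 3 spots per probe. The ATM-/- arrays lie between -2.44 and -1.93 and the ATM+/+ arrays between -0.91 and -0.73, with no overlap.

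A separation of this kind was frequent among other probes. Of the 7140 pairs that the 120 common probes form, 42.8% had ATM-/- and ATM+/+ arrays that did not overlap, and 32.3% had a genotype difference at least as large as that of miR-221 and miR-222. The pair was also set beside probes whose hairpins lie within 10 kb of each other on 1 strand in RefSeq, a comparison chosen after the values were seen. There were 36 such probe pairs, which share loci and are not independent, with miR-221 and miR-222 among them. miR-431 is on more than 1 probe, so some of the 36 repeat the same miRNAs. Most of the 36 lie on chromosome 12, and some include a passenger strand, miR-431*. Values over the 36 pairs therefore describe mainly that chromosome, not neighbouring miRNAs in general. The arrays of the genotypes did not overlap in 13 of the 36 (36.1%), and the size of the genotype difference had a median of 0.47 and a range of 0.06 to 2.68. The difference of miR-222 and miR-221 was exceeded by 5 of these pairs, among them let-7e with miR-125a-3p on chromosome 17 at 2.68 in size. Within the Mcm7-hosted cluster on chromosome 5, miR-93 and miR-106b differed by 1.03 in size, and miR-501-3p and miR-500, which are X-linked like the pair, by 0.11. miR-501-3p was near the low end in ATM+/+ cells, at 25.8 at 0 h. The 10th percentile of all intensities in the ATM+/+ sheets was 26.8.

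**Figure D3:**
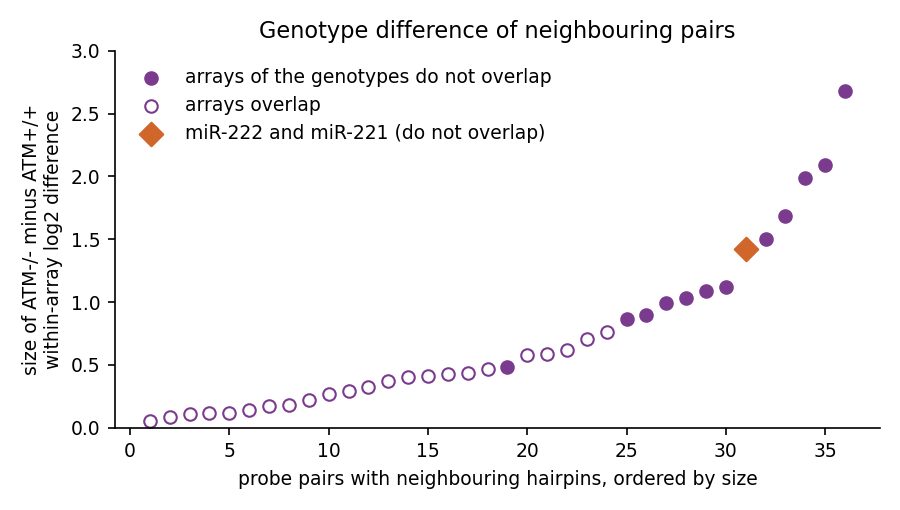
Size of the genotype difference (ATM-/- minus ATM+/+) of the within-array log2 difference for 36 probe pairs with hairpins within 10 kb, ordered by size, with filled points where the 4 ATM-/- and 4 ATM+/+ arrays do not overlap. miR-222 and miR-221, the diamond at 1.42, are exceeded by 5 pairs.

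The response to NCS was read from the value table, which holds the ratio of each array to the 0 h array of its genotype. miR-221 had ratios of 1.11, 1.24 and 1.27 at 4, 8 and 24 h in ATM-/- cells, against 1.79, 1.75 and 2.05 in ATM+/+ cells. Every ATM+/+ ratio was above every ATM-/- ratio, but the share of the 431 probes that separate in this way was not counted. Among other miRNAs, let-7g, miR-16 and miR-34a separated in the same way, and miR-93 and miR-143 did not. The separation is thus not particular to miR-221. miR-222 had ratios of 1.42, 1.99 and 1.06 in ATM-/- cells, against 1.78, 1.64 and 1.95 in ATM+/+ cells. Here the genotypes overlapped, since the ATM-/- ratio at 8 h was the highest of the 6 and those at 4 and 24 h were the lowest. A change of at least 2-fold was reached once, by miR-221 in ATM+/+ cells at 24 h, where 10.4% of the 431 probes reached it upwards. In the other arrays, where no member reached it, the share came to 1.16%, 5.1% and 0.696% for ATM-/- cells at 4, 8 and 24 h and 7.19% and 6.03% for ATM+/+ cells at 4 and 8 h.

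Both members exceeded their 0 h array at each of the 3 times in both genotypes. Over all 431 probes this held for 14.4% in ATM-/- cells, against 33.6% in ATM+/+ cells. As log2 ratios to 0 h, the means over 3 times were 0.27 ± 0.10 for miR-221 and 0.53 ± 0.45 for miR-222 in ATM-/- cells, and 0.89 ± 0.12 for miR-221 and 0.84 ± 0.12 for miR-222 in ATM+/+ cells (SD over times). At 4, 8 and 24 h miR-221 held rank 85, 106 and 60 from the top of the 431 probes in ATM-/- cells, against 54, 45 and 44 in ATM+/+ cells. miR-222 held rank 28, 23 and 182 in ATM-/- cells, against 56, 68 and 48 in ATM+/+ cells. Markers of cell types also differed from their 0 h arrays. The 5 fibroblast markers had a median mean log2 ratio of 0.18 in ATM-/- cells, where 3 exceeded 0 h at each time, against 0.87 in ATM+/+ cells, where 5 did. The 4 muscle markers had medians of -0.16 in ATM-/- cells, with 1 below 0 h at each time, against -0.67 in ATM+/+ cells, with 4 below. Over all 272 named miRNAs 53 exceeded 0 h at each time in ATM-/- cells, against 127 in ATM+/+ cells. Below 0 h at each time were 41 of the 272 in ATM-/- cells, against 81 in ATM+/+ cells. Medians were -0.08, -0.43 and -0.41 in ATM-/- cells for the 2 blood, 3 epithelial and 1 endothelial markers, against -0.35, -0.06 and -0.12 in ATM+/+ cells. The part of these values in the responses of the pair was not tested. The root mean square difference between the log2 ratios of the members was 0.07 over 3 times in ATM+/+ cells, against 0.47 in ATM-/- cells. In ATM-/- cells the members lay furthest apart at 8 h, where the value table and the authors' sheets disagreed most on miR-222. Values by genotype are not given for other pairs, so this contrast has no background.

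The treated times were also taken as repeats against 0 h in limma, fitted over all 431 probes with Benjamini-Hochberg adjustment. In ATM-/- cells miR-221 had a log2 change of 0.27 ± 0.36 (SE) and miR-222 one of 0.53 ± 0.42, both with adjusted p = 0.996 in limma. In ATM+/+ cells miR-221 had 0.89 ± 0.36 with adjusted p = 0.32, and miR-222 had 0.84 ± 0.42 with adjusted p = 0.353 in limma. The response in ATM-/- minus that in ATM+/+ cells was -0.63 for miR-221, with a 95% interval of -1.73 to 0.48 and adjusted p = 0.829, and -0.31 for miR-222, with an interval of -1.60 to 0.98 and adjusted p = 0.914 in limma. With quantile normalization the difference for miR-222 turned to 0.0093, so its direction is not settled, and that for miR-221 became -0.21. In each genotype the 0 and 4 h arrays share 1 chip and the 8 and 24 h arrays another, so a fit with chip as a block rests on 4 h against 0 h. It gave 0.15 for miR-221 and 0.51 for miR-222 in ATM-/- cells, against 0.84 and 0.83 in ATM+/+ cells. None of these passed the threshold of 0.05, and limma called 0 of 431 probes in each of the 3 contrasts, with 4, 60 and 27 probes at an unadjusted p under 0.05 for ATM-/- cells, ATM+/+ cells and the difference. The 0 h side of each contrast is 1 array, and with these intervals a difference between genotypes was not detectable for either member.

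The authors' deposited table had both members above 0 h at each time in ATM+/+ cells, as the value table did, and lower or mixed values in ATM-/- cells. For miR-221 it holds log2 ratios to 0 h of -0.10, -0.30 and 0.30 (4, 8 and 24 h) in ATM-/- cells, against 0.75, 0.67 and 0.68 in ATM+/+ cells. The ATM-/- values thus took both signs, and the ATM+/+ values lay close together. For miR-222 the authors' deposited table had 0.29, 0.19 and 0.27 in ATM-/- cells, against 0.77, 0.50 and 0.65 in ATM+/+ cells, so that every ATM-/- value was below every ATM+/+ value. The share of listed probes that separate in this way was not counted.

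The deposited p-values are those of an equal-variance comparison of 3 spots with 3 spots, and they measure spot error between 2 arrays, not a difference between cultures. For ATM-/- cells at 4, 8 and 24 h the authors' deposited table had 0.417, 0.17 and 0.0559 for miR-221 and 0.125, 0.244 and 0.407 for miR-222. For ATM+/+ cells the authors' deposited table had 0.0103, 0.0013 and 0.00332 for miR-221 and 0.00378, 0.017 and 0.0115 for miR-222. Both members were thus higher with a deposited p under 0.05 at all 3 times in ATM+/+ cells, which held for 20.4% of the 284 probes in all 3 sheets of that genotype, and at no time in ATM-/- cells, where it held for 1.63% of 123 probes at all 3 times. The shares at single times were 20%, 17.5% and 16.7% for ATM-/- cells, against 33.1%, 27.2% and 24.6% for ATM+/+ cells.

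The sources disagreed most on miR-222 in ATM-/- cells at 8 h, with a log2 ratio of 0.99 in the value table and 0.19 in the authors' deposited table. Over the 125 probes that both sources hold for this array the value table was higher by a median of 0.61, and it was higher by 0.61 for miR-221 and 0.80 for miR-222. At 24 h in ATM-/- cells miR-222 was lower in the value table by 0.19, where the median shift was 0.05. In ATM+/+ cells the members were shifted by 0.06 to 0.35 and the median probe by 0.06 to 0.34. The way the value table was derived is not given in the sources used here.

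**Figure D4:**
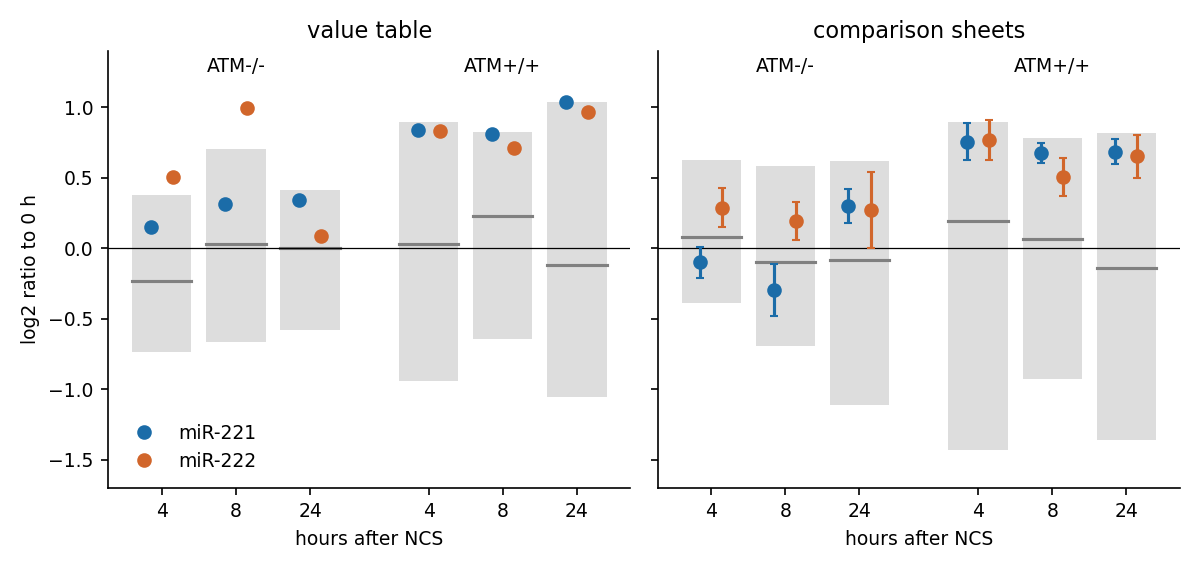
Log2 ratio to 0 h of miR-221 and miR-222 at 4, 8 and 24 h after NCS in ATM-/- and ATM+/+ cells, from the value table (left) and from the authors' comparison sheets (right, bars: SE from 3 spots per array). Grey boxes span the 10th to 90th percentile of all probes of that source and array and grey lines mark the median; both members lie in the upper part of the box in ATM+/+ cells, and miR-222 in ATM-/- cells at 8 h is at 0.99 on the left and 0.19 on the right.

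The change of the ratio of the pair against its own 0 h array needs no scaling between arrays. In the sheets the log2 difference of miR-222 minus miR-221 moved by 0.39 ± 0.17, 0.49 ± 0.23 and -0.03 ± 0.29 at 4, 8 and 24 h in ATM-/- cells, against 0.01 ± 0.19, -0.17 ± 0.15 and -0.03 ± 0.17 in ATM+/+ cells (SE from spots). The ATM-/- changes at 4 and 8 h were over 2 times their SE, and the other changes were near or under theirs. The value table gave 0.36, 0.68 and -0.26 in ATM-/- cells, against -0.01, -0.09 and -0.07 in ATM+/+ cells. These changes were not tested across arrays; the 3 times of a genotype share its 0 h array.

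The miRNAs nearest to each member by the root mean square difference of the 6 log2 ratios to 0 h were named among 272 named miRNAs. They share the 0 h arrays with the pair, so the likeness is a description. Nearest to miR-221 was miR-214, a mesenchymal miRNA of the Dnm3os transcript, at a distance of 0.09 (Pearson's r of 0.97 over 6 values). It was followed by miR-31 at 0.13 (r of 0.93), miR-18a of the miR-17-92 cluster at 0.16 (r of 0.89), miR-302b at 0.16 (r of 0.95) and miR-28 at 0.18 (r of 0.98), of which miR-302b and miR-28 are in no ATM-/- sheet. miR-222 was only number 39 in this order, at 0.34 (r of 0.50). Nearest to miR-222 were miR-29a, known for repressing collagens, at 0.23 (r of 0.70), let-7i at 0.24 (r of 0.85), miR-22 at 0.25 (r of 0.63), miR-93 at 0.28 (r of 0.48) and miR-18a at 0.28 (r of 0.65), with miR-221 at number 10. let-7i is in no ATM-/- sheet.

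Other miRNAs reported to repress Cdkn1b were set beside the pair. All 5, namely miR-24, miR-148a, miR-152, miR-181a and miR-196a, exceeded 0 h at each of the 3 times in ATM+/+ cells, and 1 of 5 did so in ATM-/- cells. Over all 272 named miRNAs 53 did so in ATM-/- cells, against 127 in ATM+/+ cells. The median of their mean log2 ratios was -0.14 in ATM-/- cells, against 0.87 in ATM+/+ cells, beside -0.01 and 0.17 over all named miRNAs. miR-24, the brightest of them, stood at 0.55 ± 0.17 in ATM-/- cells, against 0.88 ± 0.33 in ATM+/+ cells (SD over times), and miR-181a at 0.12 ± 0.17 and 0.67 ± 0.21. miR-152 was at -0.53 ± 0.47 in ATM-/- cells, against 0.87 ± 0.25 in ATM+/+ cells. miR-148a was at -0.17 ± 0.37 and 0.95 ± 0.49 and miR-196a at -0.14 ± 0.22 and 0.61 ± 0.47 in ATM-/- and ATM+/+ cells, neither being in an ATM-/- sheet, so that 3 of the 5 were listed there. None reached a 2-fold mean in either genotype.

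miRNAs with other links to the cell cycle were also described as lists. Many members are in no ATM-/- sheet: 6 of 14, 6 of 11 and 11 of 25 members of the lists below were listed in one, against 14, 11 and 24 in an ATM+/+ sheet. Of 14 miRNAs linked to cell cycle arrest (let-7, miR-15/16 and miR-34 members), 1 exceeded 0 h at each time in ATM-/- cells, against 14 in ATM+/+ cells, with median mean log2 ratios of -0.21 in ATM-/- cells, against 1.06 in ATM+/+ cells. Of 11 linked to proliferation (miR-17-92 and its paralogs), 4 did so in ATM-/- cells, against 10 in ATM+/+ cells, with medians of 0.03 in ATM-/- cells, against 0.64 in ATM+/+ cells. The pair's ATM+/+ means of 0.89 and 0.84 lay between these medians. The 25 other named miRNAs that RefSeq places on the X chromosome alone had 3 members that did so in ATM-/- cells, against 10 in ATM+/+ cells, and medians of -0.04 in ATM-/- cells, against -0.12 in ATM+/+ cells. Of these 25, 3 lay below 0 h at each time in ATM-/- cells, against 9 in ATM+/+ cells. Among all 272 named miRNAs, 53 exceeded 0 h at each time in ATM-/- cells, against 127 in ATM+/+ cells. Below 0 h at each time lay 41 and 81 of the 272. A RefSeq position was found for 217 of the 272 named miRNAs.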

How the data were processed

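Mature miRNAs were measured on 8 single-colour arrays, from 4 µg of total RNA each per the labels' protocols. The deposited comparison sheets hold, per the file headers, a normalized intensity per probe and array with combined spots, a coefficient of variation (a ratio), a log2 ratio and a p-value. The log2 values in the deposited sheets equal treated over 0 h intensity, and all 1387 deposited p-values were recovered within 1% by comparing 3 spots with 3 spots. The deposited value table holds a ratio to the 0 h array of the genotype for 431 probes, of which 272 could be named. How the scans were processed and corrected for background is not given in the sources used here. The number of arrays limits the precision.

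Log2 of the deposited ratio was fitted with limma 3.58.1 in R 4.3.3 (lmFit, eBayes), tested on simulated data, with treated times as repeats on 4 residual degrees of freedom. The simulated 0 h values carried noise, whereas the deposited ratios at 0 h are all 1. The simulation therefore did not cover treated ratios that share 1 array at 0 h. Within-array ratios were compared by an exact sign-flip test. Genotype levels were only described. Named miRNAs are the pair, those with its seed, 5 reported to target Cdkn1b and the 5 nearest to each member; cell type markers and examples of neighbouring pairs are also named, those pairs chosen after their values were seen. Members and lists were chosen with earlier results of these data known.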

Additional observations from a re-analysis of the deposited data

How the results depend on the processing

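Arrays were paired by time in the within-array test alone, and no block by replicate could be fitted because each group holds 1 array and the labels carry no replicate numbers. The mean response of miR-221 in ATM-/- cells has no settled direction, since it was 0.27 in the value table and -0.033 in the authors' deposited table; the cause was not tested. The authors' deposited table gave 0.70 for miR-221 and 0.64 for miR-222 in ATM+/+ cells. Without scaling between arrays, an alternative chosen after seeing the data, miR-221 stood at 0.46 in ATM-/- cells, against 1.20 in ATM+/+ cells, a difference of -0.75, and miR-222 at 1.14 in ATM+/+ cells. The difference of the responses of miR-222, ATM-/- minus ATM+/+, reversed to 0.0093 with quantile normalization, and that of miR-221 went to -0.21 from -0.63, and the cause was not tested. With chip as a block, which leaves 4 h against 0 h alone, miR-221 stood at 0.15 in ATM-/- cells. Leaving out 1 time gave ranges of 0.23 to 0.33 for miR-221 and 0.29 to 0.75 for miR-222 in ATM-/- cells, 0.82 to 0.94 and 0.77 to 0.90 in ATM+/+ cells, and -0.69 to -0.59 and -0.60 to -0.02 for the differences. Of these, miR-222 was at 0.29 in ATM-/- cells without 8 h, and its difference was -0.60 without 8 h and -0.02 without 24 h. No alternative brought a member's adjusted p from limma under 0.05; the lowest was 0.175, for miR-221 in ATM+/+ cells. The within-array difference of the genotypes ran from -1.55 to -1.33 without 1 time, and without pairing by time the exact permutation test of 4 arrays against 4 gave p = 0.0286 for the same -1.42, the smallest p it allows. Any 2 probes whose arrays do not overlap between genotypes give this p, and 42.8% of the 7140 pairs did not overlap. The 4 arrays of a genotype are also not replicates. The counts of probes at least 2-fold higher became 14 in ATM-/- cells at 4 h and 13 in ATM+/+ cells at 8 h with arrays centred. The authors' deposited table gave 2 and 4 for ATM-/- cells at 4 and 8 h and 11 and 18 for ATM+/+ cells at 8 and 24 h. These come from sheets of 185, 154, 298 and 313 probes in turn, fewer than the 431 of the value table. The part of the smaller sets in the lower counts was not tested. At 1.5-fold the counts at 4, 8 and 24 h were 23, 53 and 18 for ATM-/- cells and 99, 98 and 94 for ATM+/+ cells. Low signal limits miR-222 in ATM-/- cells most.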
